A study of Homo sapiens with 28 samples.

Results

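FOXF1 is a transcription factor of the forkhead family that acts in the mesenchyme of the lung. Its binding was mapped here by CUT&RUN in senescent IMR-90 ER:Ras cells in which FOXF1 and its paralogue FOXF2 had been knocked down with small interfering RNA (Sen-siFOXF1/2, 2 libraries), against senescent cells given the control siRNA named siCtrl in the labels (Sen, 2 libraries). These 4 libraries, of 28 in the series and 8 for FOXF1, were chosen by their titles. The peaks of the 4 lists on chromosomes 1 to 22 and X were joined into 42819 regions wherever they overlapped by at least 1 bp. IMR-90 is a human fetal lung fibroblast line, and the ER:Ras form carries an oncogenic Ras that is switched on by 4-hydroxytamoxifen. Both groups received 100 nM 4-hydroxytamoxifen for 6 days. The remaining level of FOXF1 or FOXF2 was not measured in these lists.

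Forkhead factors bind DNA through a winged-helix domain and are known for opening chromatin at enhancers. In CUT&RUN an antibody brings a micrococcal nuclease fusion to its target, so DNA next to the bound protein is cut free and sequenced. The same cells were profiled for p-c-JUN, the phosphorylated form of an AP-1 subunit that binds enhancers after stress and Ras signalling, and for H3K27ac, the acetylation mark of active enhancers and promoters. A library made with the antibody against the depleted factor asks which peaks are still called when there is less of it.

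Few FOXF1 peaks were called after the knockdown, and 39 of the 52 regions held in every list of both groups lay within 2 Mb of their chromosome's longest stretch without peaks. The FOXF1 lists held 186 and 133 peaks in the Sen-siFOXF1/2 libraries, against 13603 and 40537 in the Sen libraries. Both knockdown lists were shorter than either Sen list. The difference was -7.22 ± 0.824 on the log2 scale (SE, n = 2 and 2), with an exact two-sided permutation p of 0.333, the smallest this design can give, and 0.417 after adjustment over the 5 tests made. Nothing says that replicates were separate cultures, so p-values here measure only the spread between libraries, which may be technical.

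The lists after siFOXF1/2 also differed in form from the Sen lists, and this touches every count below. Their peak names carry another prefix. Their narrowest peak was 76 bp in each, against 194 and 201 bp in the Sen lists and 182 to 245 bp over the 26 other lists of the series. The lowest −log10 p of a called peak was 7.05 and 5.84 in the knockdown lists and 4.01 and 3.51 in the Sen lists. The lowest background at a summit, in overlapping fragments, was 0.173 and 0.168 after siFOXF1/2, against 0.473 and 0.542 in Sen cells. Per kb of the narrowest peak it was 2.28 and 2.21 after siFOXF1/2, against 2.44 and 2.70 in Sen cells. How far the lower background goes with the narrower peaks or with depth was not tested. By the lowest −log10 p, a weak site had to stand out more to enter a knockdown list than a Sen list. The number of mapped reads is unknown.

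Of the 42819 regions, 11215 (26.2%) were lost, that is, held by both Sen lists and by neither knockdown list. Another 52 (0.121%) were held by all 4 lists, and 26 (0.0607%) by both knockdown lists and neither Sen list. In 20 regions both Sen lists and 1 knockdown list held a peak (13 for replicate 1 and 7 for replicate 2). Another 10 regions were held by both knockdown lists and 1 Sen list, and 19 by 1 list of each kind. Peaks of a single knockdown list made up 47 regions and those of a single Sen list 31430, of which 29210 came from Sen replicate 2. In all, 174 regions held a peak after the knockdown, and 88 of them held one in both libraries.

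**Figure D1:**
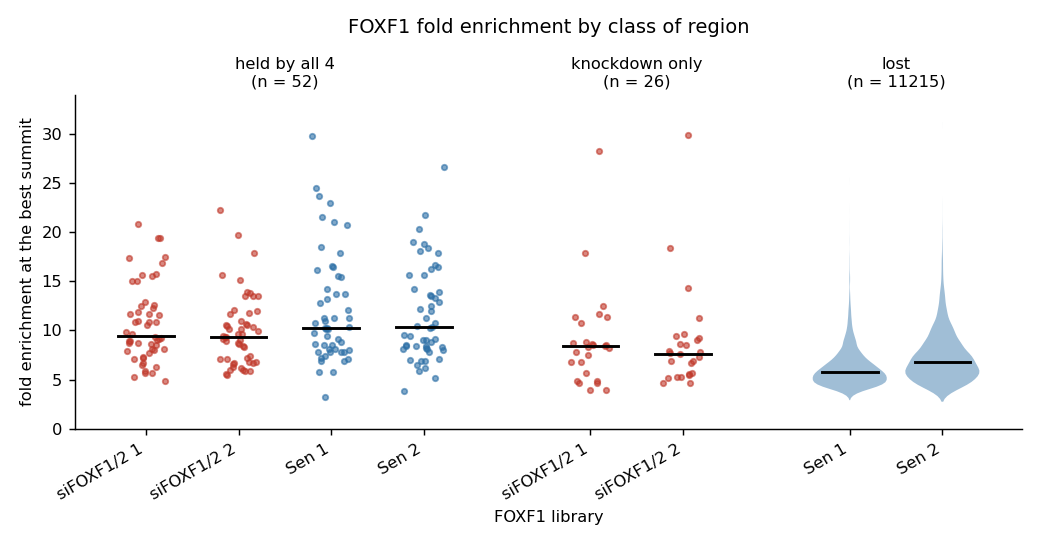
Fold enrichment of FOXF1 over local background at the best summit of each region, by library, for regions held by all 4 lists, by the knockdown lists only, and lost regions (points are regions, shaded shapes are distributions, black lines are medians). Regions held by all 4 lists have medians of 9.48 and 9.36 after siFOXF1/2 and 10.3 in each Sen list, while lost regions have Sen medians of 5.74 and 6.78.

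Lost regions covered all 23 chromosomes and had a median width of 519 bp. Their median fold enrichment over local background, the authors' value per peak, was 5.74 in Sen replicate 1 and 6.78 in Sen replicate 2, with maxima of 25.5 and 31.2. The Sen lists placed the summit within 100 bp of each other at 68.1% of lost regions, with a median distance of 61 bp. The median summit pileup, the number of fragments overlapping the summit, was 11 and 17 in the Sen libraries. Regions held by all 4 lists had median pileups of 48 and 41 in the same Sen libraries, so lost regions were weaker than these in both Sen libraries. They were not weak for those lists, whose peaks had median pileups of 10 and 11 and median folds of 5.50 and 5.19.

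The 10 leading lost regions, taken by their worst rank in −log10 q over both Sen lists, were nevertheless among the strongest FOXF1 sites of senescent cells. None lay within 2 Mb of its chromosome's longest stretch without peaks in any list. At chr9:94298534-94299046 the Sen peaks had fold enrichments of 25.5 and 31.2 on pileups of 86 and 154 fragments. Neither knockdown list held a peak there, whereas p-c-JUN peaks stood at 18.6 and 21.2 fold after siFOXF1/2 and at 19.7 and 22.4 fold in Sen cells. H3K27ac peaks at that site had 6.82 and 6.78 fold after siFOXF1/2, against 7.18 and 6.54 fold in Sen replicates 1 and 2. FOXF1 was also found there in the libraries titled Pro, read here as proliferating cells, at 11.6 and 14.6 fold, although their tags name siCtrl, 4-hydroxytamoxifen and senescent fibroblasts as for Sen.

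The region at chr13:98953591-98954205 had 21.0 and 22.5 fold in the Sen FOXF1 lists. It was the only one of the 10 with a FOXF1 peak after knockdown of JUN family members (Sen-cJUN/JUND-KD), in replicate 1 at 5.09 fold. At chr12:104613005-104613922 the FOXF1 peaks had 20.4 and 19.3 fold in Sen cells, and p-c-JUN peaks had 16.2 and 19.6 fold after siFOXF1/2 and 17.3 and 16.5 fold in Sen cells. At chr13:50432431-50432965 FOXF1 had 19.7 and 20.4 fold in Sen cells, while p-c-JUN had 19.9 and 17.4 fold after siFOXF1/2 and 17.0 and 11.6 fold in Sen cells. These sites lost their FOXF1 call and held p-c-JUN peaks in all 4 libraries.

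The p-c-JUN peak was missing from both knockdown lists at chr6:15443987-15444860, where FOXF1 had 16.7 and 17.3 fold in Sen cells and p-c-JUN 6.5 and 4.52 fold in Sen cells. At chr12:46796629-46797401 p-c-JUN was missing from knockdown replicate 1 and had 5.21 fold in replicate 2, against 5.26 and 4.43 fold in Sen cells. At chr2:14683053-14683673 p-c-JUN had 3.59 and 6.15 fold after siFOXF1/2, against 6.40 and 8.07 fold in Sen cells, with FOXF1 at 22.3 and 22.8 fold in Sen cells. At chr5:17365313-17366335 p-c-JUN had 5.86 and 6.39 fold after siFOXF1/2, against 10.4 and 11.2 fold in Sen cells. All 10 leading lost regions held a p-c-JUN peak in both Sen lists, and 8 held one in both knockdown lists. An H3K27ac peak was present in both knockdown lists at 9 of the 10. Over all lost regions, the share per p-c-JUN list was 76.1% and 84.7% in Sen cells and 65.1% and 72.5% after siFOXF1/2. Per H3K27ac list it was 74.7% and 68.0% after siFOXF1/2.

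How far the calls rest on the differing lists was examined by scaling each Sen summit to the knockdown list. Pileup and background were multiplied by the ratio of the lowest backgrounds, 0.309 to 0.366, and the result was set against the lowest −log10 p called in that knockdown list. By this measure 847 of the 11287 regions shared by the Sen lists (7.5%) were within reach of both knockdown lists from either Sen library. Of these 847, 39 held a knockdown peak and 808 did not. The same measure was applied to all peaks of 1 Sen list against the other. It put all 13603 peaks of replicate 1 within reach of replicate 2, and 83.6% held a peak there. From replicate 2, 35567 of 40537 peaks were within reach of replicate 1, and 31.2% held a peak. Being within reach thus did not ensure a call, even between libraries of the same group. With pileup and background both scaled, the remaining 10407 lost regions were too weak in at least 1 Sen library. By that scaling, their absence could not be told from the reach of the knockdown lists. Where the background alone was scaled and the pileup kept, 11148 shared regions were within reach, of which 11076 were lost. At the 52 regions held by all 4 lists the pileup ratio of knockdown to Sen had medians of 0.561 to 0.897 over the 4 pairs of libraries, above the scaling used. The number within reach thus depended on the scaling, and which scaling is nearer the truth was not tested. Regions called within reach below are those with pileup and background both scaled.

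Lost regions were divided by strength into 4 bins of equal size, and all 808 within reach belonged to the strongest bin, whose median fold was 7.94 and 9.72 in the Sen lists. Reach and strength were both taken from the Sen peaks, so this follows from the measures. Binding in the Pro libraries followed the same order. A FOXF1 peak in at least 1 Pro list was found at 69.1% of the strongest bin, 52.5% and 38.0% of the next bins and 28.3% of the weakest. Of all lost regions, 5945 (53.0%) held no Pro peak, 3289 (29.3%) held one in 1 Pro list and 1981 (17.7%) in both. Within reach were 160 of the first of these groups, 202 of the second and 446 of the third. Lost regions thus included sites with and without a Pro peak, and strength and Pro binding moved together.

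**Figure D2:**
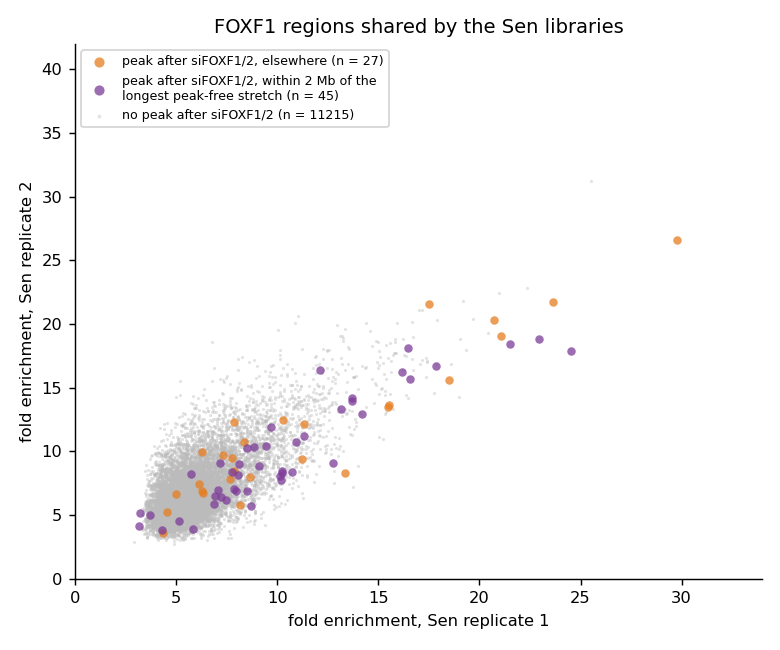
Fold enrichment of the 11287 FOXF1 regions shared by the Sen libraries, replicate 2 against replicate 1, with each point a region and colour showing whether a peak was called after siFOXF1/2. The 72 regions with a knockdown peak spread over the whole range of strength, and 45 of them lie beside their chromosome's longest peak-free stretch (at most 2 Mb away).

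Residual regions, the 174 with a peak in at least 1 knockdown list, are described next. Of the 11287 shared Sen regions, 65 (0.576%) held a peak in knockdown replicate 1 and 59 (0.523%) in replicate 2. Such peaks were more frequent among strong sites, with 12 of the 50 best shared regions holding a knockdown peak, 15 of the best 100 and 37 of the best 1000. Most of these, 9, 11 and 24, lay within 2 Mb of their chromosome's longest stretch without peaks, where only 10, 12 and 32 of the best regions lay. Elsewhere, 3, 4 and 13 of the best regions held a knockdown peak. The 52 regions held by all 4 lists lay on 18 chromosomes and had a median width of 584.5 bp. Their summits in the knockdown lists were a median of 12 bp apart, and 82.7% lay within 100 bp of each other.

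Residual regions often lay beside long stretches without peaks. For each chromosome the longest stretch without a peak in any of the 28 lists was found, which on chromosome 1 ran from 121485451 to 142537363 and on chromosome 10 from 39152722 to 42355414. Of the regions held by all 4 lists, 39 (75%) lay within 2 Mb of such a stretch, as did 95 (54.6%) of all residual regions, against 129 (1.15%) of the lost regions. Of the shared Sen regions within 2 Mb of a stretch, 25.9% and 22.4% held a peak in knockdown replicates 1 and 2. Elsewhere 20 of 11113 (0.18%) did so in each. Chromosomes 2 and 10 carried the highest counts of residual regions, 29 and 22 of 174. Among regions within reach of the knockdown lists, 26 of 34 beside a stretch kept a peak in at least 1 knockdown list and 13 of 813 elsewhere did.

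**Figure D3:**
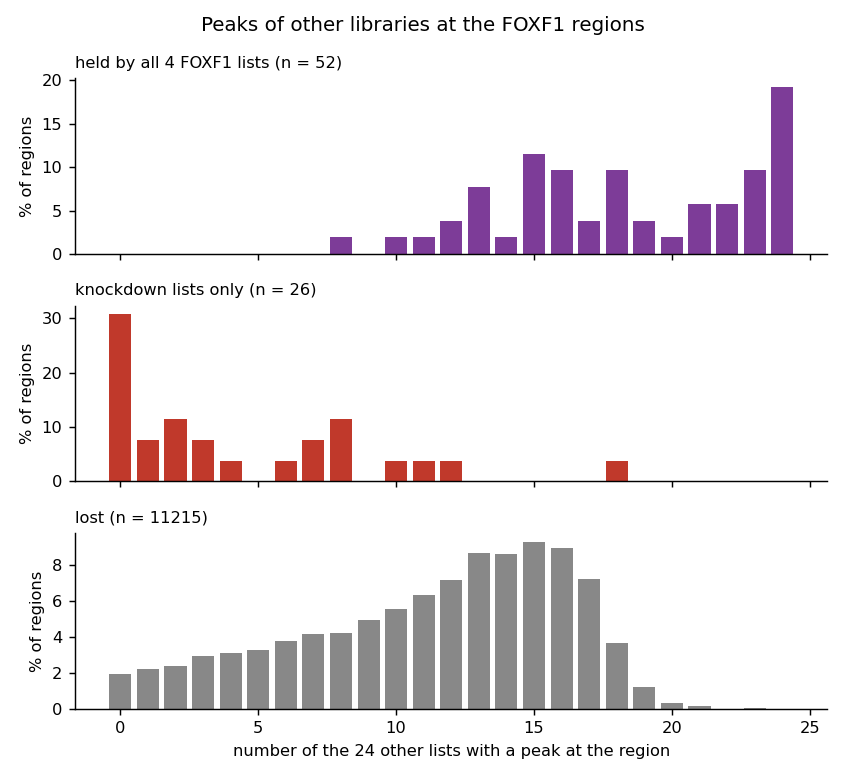
Number of the 24 other lists of the series (4 for FOXF1, 6 for p-c-JUN, 14 for H3K27ac) that hold a peak at each region, as percent of the regions of a class. Regions held by all 4 FOXF1 lists have a median of 18 lists with 10 regions in all 24, those of the knockdown lists only a median of 2.5, and lost regions a median of 12 with none in all 24.

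Peaks of other libraries were read at the same regions. The 52 regions held by all 4 lists had a peak in a median of 18 of the 24 other lists (range 8 to 24), against 12 for lost regions (range 0 to 23). Of the 52, 22 (42.3%) were held in 20 or more other lists and 10 in all 24, against 54 (0.481%) and none of the lost regions. Each of the 52 held a peak of all 3 antibodies in some other library, while 4968 lost regions (44.3%) did. FOXF1, which defined the classes, is 1 of these 3 antibodies. A peak of p-c-JUN or H3K27ac in some library was held by all 52 and by 10972 of the 11215 lost regions. The larger number of lists at the 52 did not extend to residual regions as a whole. Over all 174 the median was 12 other lists, as for lost regions, and 22 (12.6%) were held in none, against 216 (1.93%) of lost regions. Because lists differ in length, the shares below are compared within a list.

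Between the 52 regions held by all 4 lists and the lost regions, the shares lay far apart in some libraries of other knockdowns, whose lists were short. FOXF1 peaks after knockdown of JUN family members were found at 96.2% and 98.1% of the regions held by all 4 lists (n = 52), against 0.838% and 1.5% of lost regions, although those lists held only 378 and 883 peaks. H3K27ac peaks after knockdown of the acetyltransferases p300 and CBP (Sen-sip300/CBP) were found at 86.5% of the held regions in each library, against 3.43% and 1.72% of lost regions. Those lists held 4186 and 1549 peaks. The H3K27ac lists after JUN knockdown were longer, at 74484 and 29606 peaks. They held 98.1% and 100% of the 52, against 70.5% and 35.4% of lost regions. Pro FOXF1 lists held 94.2% and 96.2% of the 52, against 19.3% and 45.3% of lost regions. Over all 174 residual regions the shares were lower than over the 52, at 61.5% and 62.1% in the JUN knockdown FOXF1 lists and 51.7% and 53.4% in the Sen-sip300/CBP lists. Of the 11215 lost regions, 23 had a FOXF1 peak in both JUN knockdown libraries, of which 4 were within reach of the siFOXF1/2 lists.

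The p-c-JUN lists held nearly all of the 52 regions, 98.1% and 86.5% after siFOXF1/2 and 96.2% and 98.1% in Sen cells. Their shares of the 174 residual regions were lower, 66.1% and 50.6% after siFOXF1/2 and 59.8% and 56.9% in Sen cells. For H3K27ac after siFOXF1/2 and in Sen replicates 1 and 2 the lost regions had the higher share. The H3K27ac lists after siFOXF1/2 held 42.3% and 26.9% of the 52 regions and 74.7% and 68.0% of lost regions. In Sen replicates 1 and 2 they held 46.2% and 36.5% of the 52 regions and 85.9% and 68.4% of lost regions. In the Sen H3K27ac libraries made for comparison with Sen-sip300/CBP, whose lists were shorter at 8234 and 2046 peaks, the shares were 48.1% and 46.2% of the 52 regions and 9.33% and 2.34% of lost regions. In Sen replicates 3 and 4, of the later deposit, they were 73.1% and 80.8% of the 52 regions and 51.9% and 30.3% of lost regions. Which class had the higher H3K27ac share thus depended on which Sen libraries were read.

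**Figure D4:**
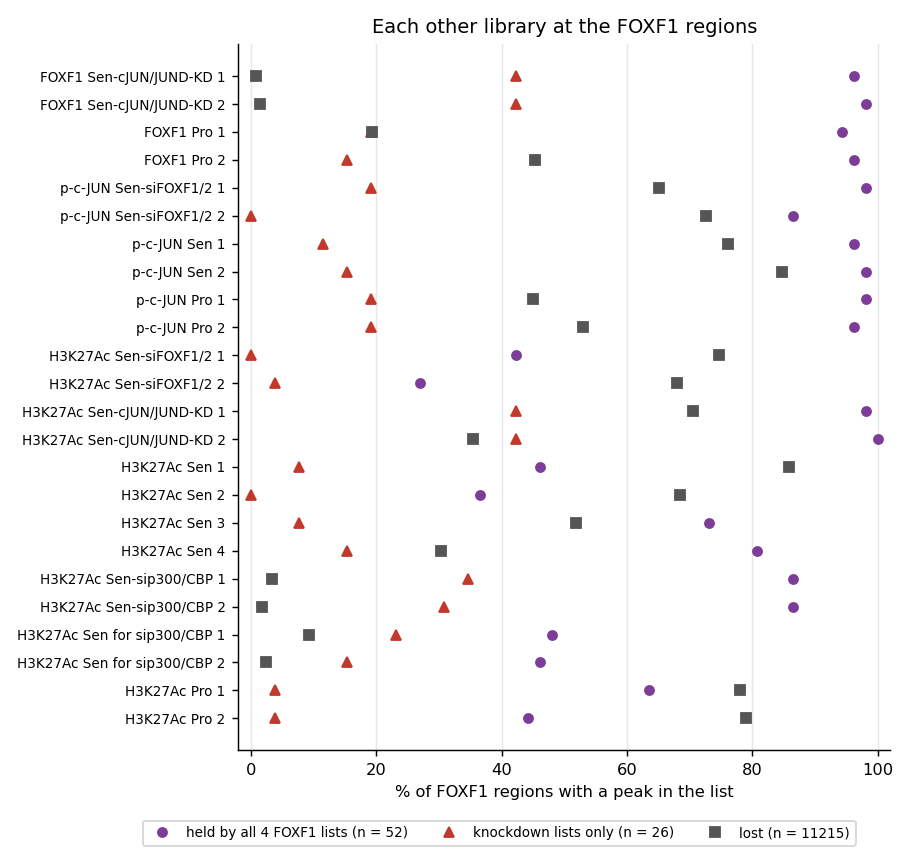
Percent of FOXF1 regions with a peak in each of the 24 other lists, for regions held by all 4 FOXF1 lists, by the knockdown lists only, and lost regions (one symbol per class, in the first Pro FOXF1 list the knockdown-only symbol lies under that of lost regions). The FOXF1 lists after JUN knockdown hold 96.2% and 98.1% of the regions of all 4 lists and 0.838% and 1.5% of lost regions, while the p-c-JUN lists of Sen cells hold 96.2% and 98.1% of the regions of all 4 lists and 76.1% and 84.7% of lost regions.

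Several of the leading regions held by all 4 lists had fold enrichments of like size with all 3 antibodies. At chr1:121484201-121485450, which ends where the peak-free stretch of chromosome 1 begins, FOXF1 had 10.9 and 11.7 fold after siFOXF1/2 and 16.5 and 15.7 fold in Sen cells. There p-c-JUN had 15.2 and 16.1 fold after siFOXF1/2 and 15.8 and 16.7 fold in Sen cells, and H3K27ac 14.9 and 14.7 fold after siFOXF1/2 and 15.2 and 14.6 fold in Sen replicates 1 and 2. At chr7:61968755-61969708 FOXF1 had 12.3 and 13.5 fold after siFOXF1/2 and 16.2 in each Sen list, with p-c-JUN at 16.4 and 17.1 fold after siFOXF1/2 and 15.7 and 15.1 fold in Sen cells. The widest of the 52 regions, chr6:58776799-58779321 with 2523 bp, had 5.72 and 5.89 fold after siFOXF1/2 and 6.93 and 6.52 fold in Sen cells. These 3 regions were held in all 24 other lists, and 7 of the 10 leading regions of the 52 lay beside a stretch.

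The 13 regions held by all 4 lists away from the stretches were held in 8 to 24 other lists, and all 13 had p-c-JUN peaks in both Sen libraries. At chr1:156186203-156186672 FOXF1 had 19.4 and 17.9 fold after siFOXF1/2, against 23.7 and 21.8 fold in Sen cells. The same site had FOXF1 at 25.3 and 27.0 fold after JUN knockdown. Its p-c-JUN peaks had 20.4 and 16.9 fold after siFOXF1/2 and 20.9 and 23.3 fold in Sen cells. No H3K27ac peak was called there after siFOXF1/2 or in Sen replicate 2. In Sen replicates 1, 3 and 4 H3K27ac had 3.71, 5.12 and 6.75 fold, and after JUN knockdown 18.0 and 29.0 fold. At chr1:91852758-91853166 FOXF1 had 17.4 and 13.9 fold after siFOXF1/2, against 29.8 and 26.6 fold in Sen cells. Its p-c-JUN peaks had 22.6 and 21.2 fold after siFOXF1/2 and 29.8 and 30.7 fold in Sen cells. At these sites FOXF1 and p-c-JUN peaks stood in the libraries of both groups.

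A smaller set of residual regions, chosen after their values were seen, was held by other lists more in the manner of lost regions. Away from the stretches, 12 regions held a peak in knockdown replicate 2 and not in replicate 1, together with a Sen peak. They were held in a median of 17 other lists (range 12 to 19), nearer the median of 18 for the 52 than the 12 for lost regions. Of the 12, 11 had p-c-JUN in both Sen libraries and 10 had H3K27ac in Sen replicates 1 and 2, whereas 1 had a FOXF1 peak after JUN knockdown. At chr2:18594578-18595473 FOXF1 had 7.95 fold in knockdown replicate 2, on a pileup of 11 fragments, against 7.84 and 12.3 fold in Sen cells. At chr5:32760128-32760563 it had 5.37 fold in knockdown replicate 2, on 6 fragments, against 8.37 and 10.8 fold in Sen cells. At chr7:116094988-116095520 it had 5.67 fold, also on 6 fragments, against 7.30 and 9.70 fold in Sen cells. Each of these peaks was called in 1 knockdown library only, on few fragments. The corresponding set of knockdown replicate 1 had 11 regions, of which 6 had p-c-JUN in both Sen libraries, 3 had H3K27ac in Sen replicates 1 and 2 and 8 had a FOXF1 peak after JUN knockdown. Whether the libraries truly differ in this could not be tested with 1 library each.

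The 26 regions found only after siFOXF1/2 were narrow, with a median width of 109 bp and a widest region of 351 bp, and the authors' Sen lists hold no peak under 194 bp. With knockdown peaks under that width left out, 3 of the 26 remained, beside 22 regions held by all 4 lists and 11258 lost regions. The strongest, chr1:77436876-77437137, had 28.2 and 29.9 fold on pileups of 48 and 53 fragments, and no other list of the series held a peak there. At chr1:569770-570120 the knockdown peaks had 17.9 and 18.3 fold on 31 fragments in each library, again with no peak in any other list. On chromosome 5, 3 such regions lay between 134259858 and 134261684, with 7.55 to 8.47 fold in replicate 1 and 7.84 to 9.41 fold in replicate 2. In all, 8 of the 26 regions were held by none of the 24 other lists, and 7 had a peak of each of the 3 antibodies somewhere. JUN knockdown FOXF1 lists held 42.3% of the 26 in each library. Their p-c-JUN shares were 19.2% and 0% after siFOXF1/2 and 11.5% and 15.4% in Sen cells.

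The other antibodies at lost regions were not used to choose them and could be compared between groups. A p-c-JUN peak was present at 65.1% and 72.5% of the 11215 lost regions in the Sen-siFOXF1/2 libraries, against 76.1% and 84.7% in the Sen libraries. The groups did not overlap. The difference was -11.6 ± 5.64 percentage points (SE, n = 2 and 2), with an exact two-sided permutation p of 0.333, the smallest possible, and 0.417 adjusted over the 5 tests. Restricted to the 808 lost regions within reach, p-c-JUN peaks were present at 76.0% and 83.4% after siFOXF1/2, against 90.5% and 94.6% in Sen cells.

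The same libraries were read at regions without FOXF1, namely 22091 regions with H3K27ac in both Sen lists and no peak in any of the 8 FOXF1 lists. There p-c-JUN was present at 44.1% and 49.4% after siFOXF1/2, against 44.0% and 55.4% in Sen cells, a difference of -2.97 ± 6.30 points whose groups overlapped. The share at lost regions minus the share at regions without FOXF1 was 21.0 and 23.2 points after siFOXF1/2, against 32.2 and 29.3 points in Sen cells. That contrast was -8.62 ± 1.81 points (SE, 2 libraries each, with an exact permutation p of 0.333, two-sided, adjusted 0.417), and its groups did not overlap.

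**Figure D5:**
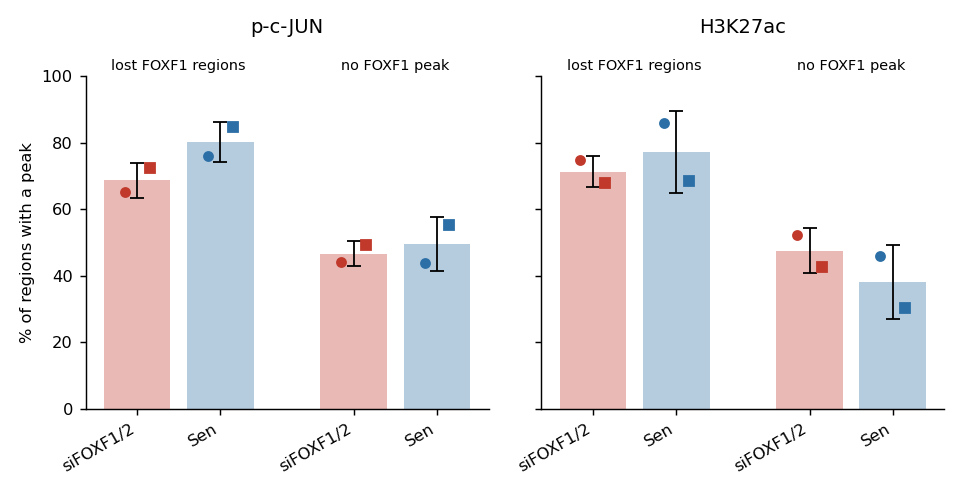
Percent of regions with a p-c-JUN or H3K27ac peak at lost FOXF1 regions and at regions without any FOXF1 peak, in Sen-siFOXF1/2 and Sen libraries (circles replicate 1, squares replicate 2, bars means, error bars SD, n = 2). For p-c-JUN at lost regions the knockdown values of 65.1% and 72.5% lie below the Sen values of 76.1% and 84.7%, and for H3K27ac the groups overlap at both sets of regions.

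An H3K27ac peak was present at 74.7% and 68.0% of lost regions after siFOXF1/2, against 85.9% and 68.4% in Sen replicates 1 and 2. The difference of -5.78 ± 9.34 points (SE, n = 2 and 2) was smaller than the spread between the Sen libraries (exact permutation p of 0.667, two-sided, adjusted 0.667). At 34404 regions with p-c-JUN in both Sen lists and no FOXF1 peak, H3K27ac was present at 52.3% and 42.8% after siFOXF1/2, against 46.0% and 30.3% in Sen cells. Lost minus no-FOXF1 shares were 22.4 and 25.3 points after siFOXF1/2, against 39.8 and 38.1 points in Sen cells, a contrast of -15.1 ± 1.68 points (exact two-sided permutation p = 0.333, adjusted 0.417). With the later Sen libraries added, whose shares at lost regions were 51.9% and 30.3%, the difference at lost regions turned to 12.3 points. The later libraries' lost minus no-FOXF1 shares were 27.4 and 16.1 points, so the groups overlapped with all 4 Sen libraries and the contrast was -6.54 points (exact two-sided permutation p = 0.533). Deposit and H3K27ac share thus moved together in Sen cells, and their part in the result was not tested.

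Lost and gained peaks of the other antibodies were then counted apart. Here regions without FOXF1 were all regions of the counted antibody with no FOXF1 peak in any list, 94312 for p-c-JUN and 89842 for H3K27ac. Unlike the sets above, they did not need a peak of the other antibody. Of p-c-JUN regions shared by both Sen lists, 599 of 8315 (7.20%) at lost FOXF1 regions and 3311 of 34245 (9.67%) at regions without FOXF1 had no p-c-JUN peak in either knockdown list. Of p-c-JUN regions shared by both knockdown lists, 34 of 7099 (0.479%) at lost FOXF1 regions and 5394 of 38813 (13.9%) at regions without FOXF1 had no peak in either Sen list. For H3K27ac the lost shares were 7.4% and 15.3%, and the gained shares 1.42% and 21.1%, at lost FOXF1 regions and at regions without FOXF1. These are counts of regions, which are not replicates, and no test was made of them.

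Each of the other marks, taken singly, was kept at more lost FOXF1 regions than not. All 4 p-c-JUN lists held a peak at 60.1% of them (background 35.9% of all p-c-JUN regions) and all 4 H3K27ac lists at 52.5% (background 26.7%). Fewer, 4457 (39.7%), held both throughout. A p-c-JUN peak was lost together with FOXF1 at 618 regions (5.51%, against a background of 4.03% of all p-c-JUN regions lost in that comparison) and gained at 34 (0.303%, background 4.47%). An H3K27ac peak was lost at 606 (5.40%, background 4.26%) and gained at 118 (1.05%, background 5.51%). The loss shares lay above the background, which also counts regions without a peak in both Sen lists, where no loss was possible. Among regions held by both Sen lists, losses were less frequent at lost FOXF1 regions than at regions without FOXF1. The shares, given above, were 7.20% against 9.67% for p-c-JUN and 7.4% against 15.3% for H3K27ac. Gains were below the background, at regions that mostly held these peaks in Sen cells already. At 105 regions FOXF1, p-c-JUN and H3K27ac were all lost, among them, chosen after their values were seen, chrX:15924444-15924805, with FOXF1 at 13.7 and 16.6 fold in Sen cells, and chr2:180579742-180580391, with 11.8 and 16.6 fold in Sen cells.

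Lost regions with and without Pro binding were also read apart for p-c-JUN. At lost regions without a Pro FOXF1 peak p-c-JUN was present at 56.8% and 64.1% after siFOXF1/2, against 69.4% and 79.6% in Sen cells, a difference of -14.0 points. At lost regions with a peak in both Pro lists it was present at 78.7% and 86.6% after siFOXF1/2, against 88.4% and 93.1% in Sen cells, a difference of -8.05 points. The change in share between these sets of regions was not tested. By strength the difference was -13.1 points in the strongest bin, -11.9 and -10.5 in the next bins and -10.9 in the weakest.

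Where both were present, p-c-JUN summits lay nearer the FOXF1 summit than H3K27ac summits did. Only peaks overlapping a lost region were measured, which keeps distances short, and no distance for unrelated peaks was computed. At lost regions the p-c-JUN summit lay a median of 76 to 87 bp from the Sen FOXF1 summit in the siFOXF1/2 p-c-JUN lists and 76 to 89 bp in the Sen p-c-JUN lists, and 54.3% to 59.2% of summits lay within 100 bp. The p-c-JUN medians of the groups overlapped. For H3K27ac, measured from the FOXF1 summit of Sen replicate 1, the medians were 180 and 195 bp after siFOXF1/2 and 164 and 174 bp in Sen replicates 1 and 2. Measured from the FOXF1 summit of Sen replicate 2 they were 174.5 and 188 bp after siFOXF1/2 and 161 and 171 bp in Sen cells. The H3K27ac medians after siFOXF1/2 were thus higher by either summit, a difference that was not tested.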

How the data were processed

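Each of the 28 CUT&RUN libraries (35 bp paired-end reads, 5 ng of yeast spike-in DNA) came as 1 deposited hg19 peak list, with none pooled. The tools MACS2 (3.0.0), Bowtie2 (2.3.4.1), deepTools (3.1.1) and SAMtools (1.9) are listed per the submitters' processing notes. The deposited values per peak were a display score, a fold enrichment, and −log10 p and −log10 q, all from the authors' peak caller. Whether the spike-in or a control library was used is not given. Per the labels, Pro samples carry the treatment tags of Sen samples, so Pro rests on titles.

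Peaks on other sequences (65 of 54524 in the 4 lists) were left out. Regions were joined at 1 bp overlap (pandas 2.3.3, NumPy 2.4.6, SciPy 1.17.1), with coordinates counted from 1. Summit pileups were recovered from fold and −log10 p, as whole numbers within 0.0005 for 100% of peaks whose −log10 p was below 60. On simulated lists without noise, with planted peaks sharing the middle of their region, the number of regions per class matched that planted (5000 in all). This checks the joining only. The leading regions named are, per class, the 10 whose poorer rank in −log10 q was best over the lists that held them. The regions, classes and alternatives were chosen with earlier results of these data known. Same-numbered libraries had correlations of 0.000741 to 0.0271 in their deviations from group means, and the labels state no pairing. Gene names and sequences, which need an hg19 annotation, are not given.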

Additional observations from a re-analysis of the deposited data

How the results depend on the processing

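Lost, knockdown-only and all-4 regions numbered 11215, 26 and 52. With −log10 q of 5 or more, lost regions numbered 5302. When the 4 lists were shortened to the 133 best peaks of each they numbered 67, beside 56 knockdown-only and 13 all-4 regions. Joining by 50% of the shorter peak or by summits within 200 bp left all 3 counts within 1.5 times. Alternatives chosen after seeing the data gave 3 knockdown-only and 22 all-4 regions with narrow knockdown peaks left out, 16 and 13 without regions within 2 Mb of a stretch, and 808 lost regions within reach, or 11076 with the pileup unscaled. Leaving out each library gave 11222 to 40449 lost regions (the highest without Sen replicate 1), 31 to 66 knockdown-only regions (the highest without Sen-siFOXF1/2 replicate 2) and 56 to 65 regions held throughout. Each class then has 1 condition fewer, so these counts tend to rise by construction. The mean held share was 0.549%, 0.943% at −log10 q of 5 or more, and 0.176% to 0.576% with each library left out (lowest without Sen replicate 1).

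The log2 difference in peak number ranged from -8.01 to -6.43 with each library left out. The p-c-JUN difference at lost regions ranged from -15.8 to -7.34 points, and the H3K27ac difference from -14.5 to 2.94, positive without Sen replicate 1. With all 4 H3K27ac Sen libraries it was 12.3. With each library left out, the contrasts with FOXF1-free regions ranged from -10.1 to -7.16 for p-c-JUN and from -16.6 to -13.7 for H3K27ac. With all 4 Sen libraries, an alternative added after seeing the data, the H3K27ac contrast was -6.54, and its exact p of 0.533 was no longer the smallest possible. Lost regions with peaks of all 3 antibodies were 38.9% at −log10 q of 5 or more and 43.4% at 50% overlap, against 44.3%.

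Labels do not say that replicate numbers pair libraries. With a replicate block the differences stayed at -7.22, -11.6 and -5.78, and the smallest exact p became 0.5. Depth in reads is unknown, so an absent peak at a weak site cannot be told from a shallow or strictly called list. The search for forkhead and AP-1 letters at summits was not run, since it needs an hg19 genome.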
